A study of Labeotropheus fuelleborni and Maylandia zebra with 12 samples.

Results

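Transcripts of 4 genes were followed in replacement teeth and in taste bud-bearing oral epithelium of 2 Lake Malawi cichlid fishes: trpm5, itpr3 and plcb2, which act in taste transduction, and ddc, which acts in serotonin synthesis. They were found by their names in a table of 26490 gene features, where each name matched 1 feature, so that 4 of 26490 features are described. The species were Labeotropheus fuelleborni and Maylandia zebra, also placed in Metriaclima (M. zebra in either case). The tooth samples were unerupted teeth picked out of the crypts inside the jaw bone, and the taste bud samples were a narrow strip of epithelium from the lip side of the outer tooth row of the lower jaw. Each of the 4 groups, L. fuelleborni tooth, L. fuelleborni taste bud, M. zebra tooth and M. zebra taste bud, had 3 libraries. No treatment, genotype or age is given in the labels, and nothing in them says that each library of a group came from a different animal, so that p-values measure the spread between these libraries, which may be technical.

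In vertebrate taste buds, the cells that sense sweet, umami and bitter compounds carry G protein-coupled receptors. The receptors act through phospholipase C beta 2, the product of plcb2, which makes inositol trisphosphate. This messenger opens the calcium release channel encoded by itpr3, calcium opens the cation channel encoded by trpm5, and the depolarised cell releases ATP onto nerve fibres. Other taste bud cells, among them basal cells of fish taste buds, make serotonin, and the product of ddc, aromatic L-amino acid decarboxylase, carries out the last step of that synthesis. The strip of epithelium holds many cells besides taste cells. In such bulk samples, fewer cells of a type and less RNA per cell cannot be told apart.

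The libraries held few counts, with totals from 72226 to 300663. After scaling for library size and composition with TMM factors, 1 count was worth 3.02 to 14.4 CPM, the unit in which libraries of unequal depth are compared. The shallowest libraries were those of M. zebra taste bud, where 1 count was worth 9.27 to 14.4 CPM. Of the 26490 features, 2962 had enough counts to be tested with edgeR's quasi-likelihood test. The tested features included trpm5, itpr3 and ddc, and plcb2 lay below the filter. No source used here gives the strand setting of the counting or the annotation, so that the counts of a member cannot be told apart from those of an overlapping antisense gene.

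The 4 genes did not move as a set between the tissues. Over both species, trpm5 and ddc were higher in taste bud epithelium, 2.81-fold and 24.9-fold by summed counts. For ddc this passed the test in each species, and for trpm5 in M. zebra. In M. zebra and over both species, itpr3 was higher in tooth. Counts of plcb2 were few, and all 6 tooth libraries lay above all 6 taste bud libraries. A separation of this kind, in one direction or the other, was seen in 29.5% of genes tested, which do not include plcb2. In the edgeR test over both species (adjusted p below 0.05, Benjamini-Hochberg over 2962 genes), 2 of 3 tested members were higher in taste bud, against 20.2% of all genes tested, and 1 of 3 was higher in tooth, against 32.6%. With 52.8% of all genes past the threshold in one direction or the other, the passing of 3 members is not by itself a result about them. The filter was passed by ddc, with at most 2 counts in a tooth library, only through taste bud. It was passed by itpr3, with at most 8 counts in a taste bud library, only through tooth. The directions of the ddc and itpr3 calls were thus not independent of the filter.

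**Figure D1:**
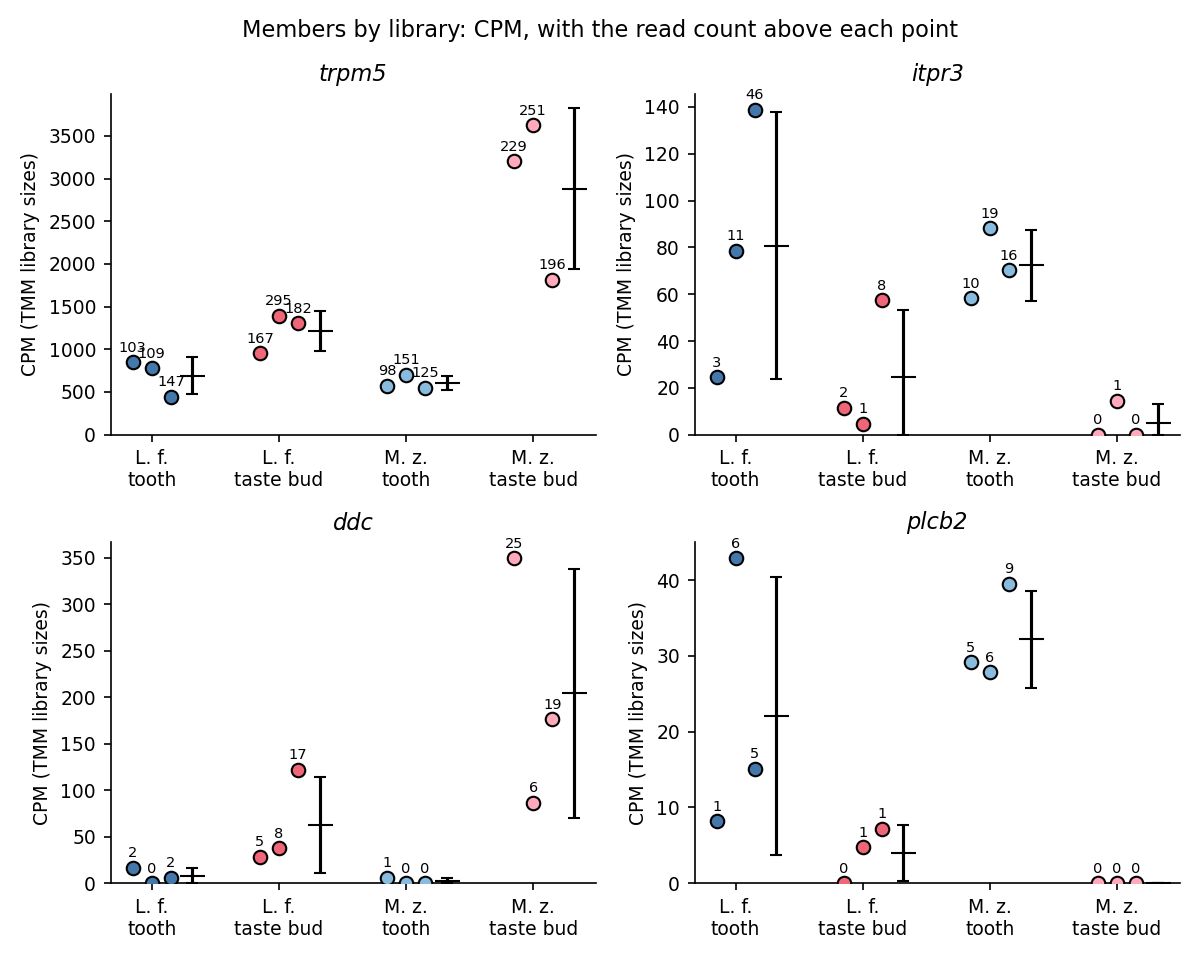
Level of the 4 genes in each library (y axis: CPM with TMM library sizes; x axis: the 4 groups). Points are libraries with their read count above, and the dash and bar beside them are the mean and SD of 3 libraries, cut at 0. The taste bud libraries are high for trpm5 and ddc, and the tooth libraries are high for plcb2 and, in M. zebra, for itpr3.

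Of the 4 genes, the cation channel gene trpm5 had the most counts, 2053, of which 1320 were from taste bud. In L. fuelleborni tooth it was at 846, 779 and 444 CPM (replicates 0, 3 and 4), and in L. fuelleborni taste bud at 954, 1394 and 1307 CPM (replicates 1, 2 and 4). In M. zebra tooth it was at 572, 701 and 549 CPM (replicates 0, 1 and 3), and in M. zebra taste bud at 3202, 3626 and 1817 CPM (replicates 1, 2 and 3). All 6 taste bud libraries lay above all 6 tooth libraries, a separation seen in 29.5% of genes tested. The group means, from the lowest, were 607 ± 81.7 CPM in M. zebra tooth, 690 ± 216 in L. fuelleborni tooth, 1219 ± 233 in L. fuelleborni taste bud and, highest, 2882 ± 946 in M. zebra taste bud (SD, n = 3 each). The teeth of the 2 species, the neighbours at the low end, differed by less than their spread.

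Over both species, trpm5 was higher in taste bud with a log2 fold change (log2FC, tooth over taste bud) of -1.53 (SE 0.32, adjusted p = 2.23e-04, edgeR), and the ratio of summed counts was 2.81-fold in favour of taste bud (95% counting interval 2.56 to 3.08). An exact permutation test of log2 CPM, with the tissue labels exchanged within each species, gave p = 0.005, two-sided, the smallest that its 400 arrangements can give. Within M. zebra the difference passed the edgeR test, with a log2FC of -2.24 (SE 0.47, adjusted p = 4.02e-04), where 42.6% of genes passed, 15.7% with the higher level in taste bud and 26.9% with the higher level in tooth. Within L. fuelleborni the difference did not pass the edgeR test (log2FC -0.83, SE 0.45, adjusted p = 0.152). There 38.6% of all genes tested passed, 13.9% with the higher level in taste bud and 24.6% with the higher level in tooth. The 3 taste bud libraries of L. fuelleborni still lay above its 3 tooth libraries for trpm5. Such a separation, in one direction or the other, was seen in 44.5% of genes tested. With the share of counts at ribosomal protein genes as a covariate, the L. fuelleborni difference passed as well (log2FC -1.04, SE 0.34, adjusted p = 0.0207). Exact permutation within a species, with 3 libraries against 3, cannot give a p below 0.10 for any member.

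Between the species, all 3 M. zebra taste bud libraries lay above the 3 of L. fuelleborni for trpm5, by 2.22-fold in summed counts (1.99 to 2.48), a separation seen in 22.6% of genes tested. The edgeR test of that species difference missed the threshold (log2FC, L. fuelleborni over M. zebra, -1.24, SE 0.45, adjusted p = 0.123), which 4.29% of genes passed, 2.26% with more in M. zebra and 2.03% with more in L. fuelleborni. DESeq2 called it (log2FC -1.28, SE 0.40, adjusted p = 0.0299), the only 1 of 12 alternative settings to do so. Over those settings the log2FC ran from -1.30 to -0.61. No fit with 1 library left out called it. In tooth, where 1.52% of genes passed, 0.743% with more in M. zebra and 0.777% with more in L. fuelleborni, the same contrast gave 0.18 (SE 0.45, adjusted p = 0.989). The test of whether the tissue difference itself differed between the species gave 1.42 on the log2 scale (SE 0.63), with an unadjusted p = 0.0342 and an adjusted p = 0.636. The percentage of genes called in that contrast was 0% in the main edgeR fit, and 228 genes, 7.70% of those tested, had an unadjusted p below 0.05. DESeq2 also called 0 genes there, limma-voom called 1, and edgeR without a filter on low counts called 2. With 1 library left out, edgeR called 1 gene without L. fuelleborni taste bud replicate 4 and 0 otherwise. Leaving out the 3 libraries with most counts at ribosomal protein genes kept 1 L. fuelleborni taste bud library, so that fit is not counted here.

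In part, the level of trpm5 ran opposite to depth. Its raw counts ranged from 98 to 295 over the 12 libraries, a 3.01-fold range, while the totals ranged 4.16-fold. The group with the highest level, M. zebra taste bud, had the lowest totals, 72226, 85872 and 111155. Each of these lay below every M. zebra tooth library, with totals of 155864, 184675 and 196861. Within M. zebra, depth and tissue therefore cannot be told apart. The deepest library of a group had the lowest trpm5 level in 3 of 4 groups, the exception being L. fuelleborni taste bud. Between the L. fuelleborni tissues the relation was not seen. Taste bud, with the higher level, had totals of 220903, 248332 and 147480, and tooth had 111626, 122957 and 300663. The part of depth in the result was not tested.

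**Figure D2:**
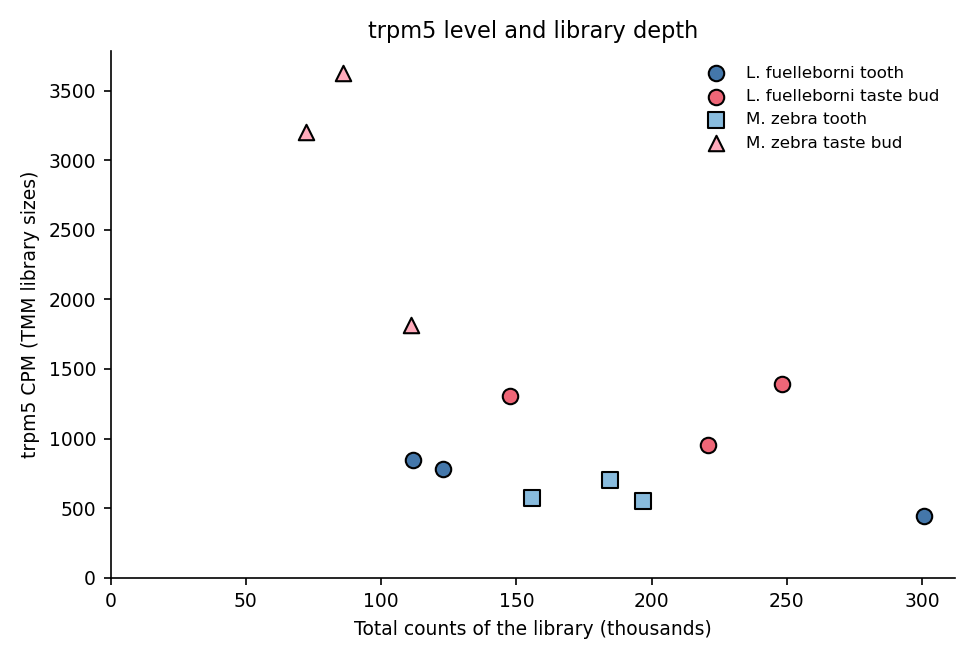
Level of trpm5 (y axis: CPM with TMM library sizes) against the total counts of each of the 12 libraries (x axis), with the groups by colour and shape. The M. zebra taste bud libraries combine the lowest totals, from 72226 to 111155, with the highest levels, from 1817 to 3626 CPM, and the deepest library, an L. fuelleborni tooth sample of 300663 counts, has the lowest level, 444 CPM.

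Of the 85 counts of the decarboxylase gene ddc, 80 were from taste bud. In L. fuelleborni tooth its counts were 2, 0 and 2 (16.4, 0 and 6.04 CPM) and in M. zebra tooth 1, 0 and 0 (5.84, 0 and 0 CPM). Taste bud libraries of L. fuelleborni held 5, 8 and 17 counts (28.6, 37.8 and 122 CPM), and those of M. zebra held 25, 6 and 19 (349.6, 86.7 and 176 CPM), each in the order of replicates given above. Every taste bud library held ddc counts and lay above every tooth library, as 29.5% of genes tested separated in one direction or the other, while 3 of the 6 tooth libraries held none. The means were 1.95 ± 3.37 CPM in M. zebra tooth, 7.49 ± 8.31 in L. fuelleborni tooth, 62.8 ± 51.5 in L. fuelleborni taste bud and, highest, 204 ± 134 in M. zebra taste bud (SD, n = 3 each). The 2 tooth groups overlapped, and so did the 2 taste bud groups.

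The difference in favour of taste bud passed the edgeR test over both species (log2FC -4.71, SE 0.70, adjusted p = 3.09e-06) and within each species. The ratio of summed counts was 24.9-fold over both species (10.3 to 78.9), and the exact permutation test gave p = 0.005. Of the 2962 genes tested, 72 had a lower log2FC. In L. fuelleborni the log2FC was -3.01 (SE 0.93, adjusted p = 0.0106), and summed counts differed 8.46-fold (2.98 to 33.0). That call ended without L. fuelleborni tooth replicate 4 (log2FC -2.89, adjusted p = 0.0575) or without taste bud replicate 4 (log2FC -2.27, adjusted p = 0.0626), and the log2FC was -3.72 without tooth replicate 0. In M. zebra, where the tooth libraries held 1 count in all, the log2FC was -6.40 (SE 1.04, adjusted p = 3.16e-05) and the ratio 124-fold with an interval of 21.2 to 4977. Without M. zebra tooth replicate 0, which held that count, the log2FC was -8.07 in M. zebra and -5.54 over both species, and without M. zebra tooth replicate 3 it was -5.80 in M. zebra.

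Between the species, ddc was 3.53-fold higher in M. zebra than in L. fuelleborni taste bud by summed counts (2.20 to 5.74). The edgeR contrast did not pass (log2FC, L. fuelleborni over M. zebra, -1.73, SE 0.71, adjusted p = 0.173), and it passed when L. fuelleborni taste bud replicate 4, the library of that group with the most ddc, was left out (log2FC -2.51, adjusted p = 0.0467). The difference between the species in the tissue difference was 3.39 on the log2 scale (SE 1.61, unadjusted p = 0.0447, adjusted p = 0.636). Both trpm5 and ddc were thus at their highest mean in M. zebra taste bud, with neither species contrast past the threshold in the edgeR test.

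The calcium release channel gene itpr3 went the other way, with 105 of its 117 counts in tooth. In L. fuelleborni tooth its counts were 3, 11 and 46 (24.6, 78.7 and 139 CPM), and in L. fuelleborni taste bud 2, 1 and 8 (11.4, 4.73 and 57.5 CPM). In M. zebra tooth they were 10, 19 and 16 (58.4, 88.2 and 70.3 CPM), and in M. zebra taste bud 0, 1 and 0 (0, 14.4 and 0 CPM). In M. zebra the tissues did not overlap, as in 56.5% of genes tested. In L. fuelleborni, taste bud replicate 4 lay above tooth replicate 0. The means, from the lowest, were 4.82 ± 8.34 CPM in M. zebra taste bud, 24.5 ± 28.7 in L. fuelleborni taste bud, 72.3 ± 15.01 in M. zebra tooth and 80.7 ± 57.1 in L. fuelleborni tooth (SD, n = 3 each). Within each tissue the species differed by less than the larger SD.

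Over both species itpr3 was higher in tooth (log2FC 2.90, SE 0.72, adjusted p = 0.00135, edgeR), with a ratio of summed counts of 5.61 (3.08 to 11.2) and p = 0.010 in the exact permutation test. The log2FC was 3.55 without L. fuelleborni taste bud replicate 4 and 4.19 without M. zebra taste bud replicate 2. In M. zebra the difference passed (log2FC 3.92, SE 1.21, adjusted p = 0.0109). It missed the threshold without M. zebra taste bud replicate 3 (log2FC 3.18, adjusted p = 0.0707), and the log2FC was 6.63 without M. zebra taste bud replicate 2, the only library of that group with a count. In L. fuelleborni it did not pass (log2FC 1.87, SE 0.79, adjusted p = 0.0633). The L. fuelleborni value depended on single libraries: it passed without tooth replicate 0 (log2FC 2.24, adjusted p = 0.0311) or without taste bud replicate 4 (log2FC 3.21, adjusted p = 0.00642).

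In 3 libraries, all of L. fuelleborni, ribosomal protein genes took the highest share of counts: taste bud replicates 1 and 2 and tooth replicate 4. Leaving these out turned the L. fuelleborni itpr3 difference to -0.23 (SE 0.99) and ended the call over both species (log2FC 1.83, adjusted p = 0.0584). That fit kept 1 L. fuelleborni taste bud library, assumed to vary like the other groups. The tissue difference of itpr3 was not shown to differ between the species (-2.04 on the log2 scale, SE 1.57, adjusted p = 0.738). The L. fuelleborni over M. zebra contrast gave 2.27 in taste bud (SE 1.39, adjusted p = 0.398) and 0.22 in tooth (SE 0.69, adjusted p = 0.989).

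The phospholipase gene plcb2, whose product acts just before itpr3, had 32 of its 34 counts in tooth. Its counts were 1, 6 and 5 in L. fuelleborni tooth (8.21, 42.9 and 15.1 CPM) and 5, 6 and 9 in M. zebra tooth (29.2, 27.8 and 39.6 CPM). They were 0, 1 and 1 in L. fuelleborni taste bud (0, 4.73 and 7.18 CPM), and no M. zebra taste bud library held any. Each tooth library therefore lay above each taste bud library, the closest pair, 8.21 and 7.18 CPM, resting on 1 count each. Among the genes tested, which do not include plcb2, 29.5% separated in one direction or the other. The ratio of summed counts was 10.3 (2.62 to 88.4) over both species and 5.32 (1.18 to 48.9) in L. fuelleborni. In M. zebra, plcb2 was 2.70-fold higher in tooth when set against 3 counts over the 3 taste bud libraries, which held none. The exact permutation test over both species gave p = 0.005 with a difference of 1.42 in log2 CPM with a prior count of 2. In the edgeR fit without a filter on low counts, adjusted over another set of genes, the log2FC was 3.86 over both species (SE 1.09, adjusted p = 0.00453), 5.53 in M. zebra (SE 1.84, adjusted p = 0.0378) and 2.18 in L. fuelleborni (SE 1.15, adjusted p = 0.280). In tooth, the 12 counts of L. fuelleborni and 20 of M. zebra gave a ratio of 0.622 (0.277 to 1.34).

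**Figure D3:**
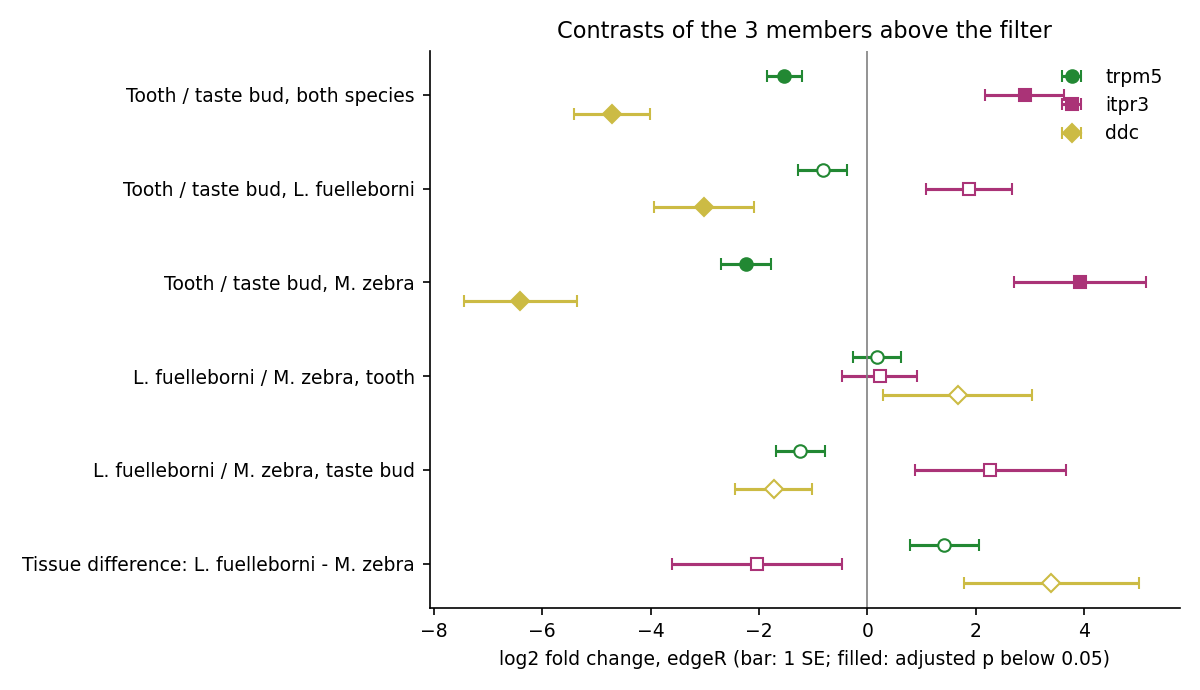
Log2 fold changes of the 3 members above the filter in 6 contrasts (x axis: log2 fold change from edgeR; bars: 1 SE; filled symbols: adjusted p below 0.05). In the first 3 contrasts trpm5 and ddc lie below 0 and itpr3 above 0, and no symbol is filled in the species contrasts or in the difference between species.

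The pathway around the 4 genes was read from 6 gene lists. Of 25 symbols for taste receptors and G protein subunits, 4 matched a named feature and 0 passed the filter. None of the 7 taste receptor symbols on that list matched one. The G protein subunit genes gnb1 and gnb4 had 62 and 9 counts in tooth and 23 and 3 in taste bud, and gnb3 had a single count. The ratio, tooth over taste bud, was 1.73 for gnb1 (1.06 to 2.92), whose levels in L. fuelleborni were 37.7 CPM in tooth and 37.3 CPM in taste bud, and 1.92 for gnb4 (0.480 to 11.1). It was 3.34 for ric8b, a chaperone of G protein alpha subunits (1.26 to 11.1).

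Of 15 matched features for phospholipases, calcium release and channels, 11 had a count and 2 passed the filter, trpm5 and itpr3. Within the phospholipase C beta family, the ratio of tooth over taste bud was 10.9 for plcb1 (2.80 to 93.7), close to the 10.3 of plcb2, and 0.397 for plcb3 (0.183 to 0.831). For plcb4, added after its values were seen, it was 0.275 (0.0866 to 0.761), from 6 and 14 counts. The mean level of plcb3 was 6.04 CPM in tooth and 33.3 CPM in taste bud of L. fuelleborni. In M. zebra it was 10.6 and 13.9 CPM, from 7 and 4 counts. The inositol trisphosphate receptor gene itpr2 had a ratio of 1.43 (0.790 to 2.71) against 5.61 for itpr3. The ATP release channel gene calhm1 and the proton channel gene otop1, which were picked after their values were seen, had 1 count each, both in L. fuelleborni taste bud. In the TRPM family, the 73 counts of trpm7 included 63 from tooth, which gave a ratio of 4.04 (2.06 to 8.83). The 13 counts of trpm2 all lay in tooth, 2.78-fold higher there when set against 3 taste bud counts, and trpm1 had none. Of the 3 family members with counts, trpm5 alone had a ratio below 1, 0.356 (0.325 to 0.390), and it was the only one above the filter.

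Of 15 matched features for serotonin synthesis, storage, uptake and breakdown, 14 had a count and 2 passed the filter, ddc and slc18a2, the gene of the vesicular monoamine transporter that loads serotonin into vesicles. The level of slc18a2 was 416 ± 210.1 CPM in L. fuelleborni taste bud, 505 ± 236 CPM in M. zebra taste bud, and 274 ± 46.3 and 256 ± 39.5 CPM in the teeth of the same species (SD, n = 3 each). Its log2FC of -0.80 over both species did not pass (SE 0.35, adjusted p = 0.0567). The tryptophan hydroxylase genes, whose product acts just before ddc and which were picked after their values were seen, had 12 counts for tph2, with 7 in taste bud and 0 in tooth of L. fuelleborni and 1 in taste bud and 4 in tooth of M. zebra, and 1 count for tph1. The acetyltransferase gene aanat, which acts on serotonin on the way to melatonin, had 24 of its 37 counts in taste bud, 2.88-fold more than in tooth after scaling (1.41 to 6.16). Both breakdown genes named had the opposite ratio: 5.88 for the monoamine oxidase gene maob (2.54 to 16.7) and 4.49 for aldh2 (2.13 to 10.9), tooth over taste bud. Of the 61 maob counts, 46 were from M. zebra tooth. Median log2FC values of these lists are not informative, since 2 members or fewer passed the filter, and the median of all genes tested was 0.21 over both species.

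Of 10 matched serotonin receptor features, 4 had a count and 0 passed the filter. The receptor gene htr6 had 53 of its 70 counts in tooth, a ratio with an interval of 1.14 to 3.68, and htr2b had a ratio of 0.641 (0.226 to 1.82). The genes htr1a and htr1e had 3 and 4 counts in all. Of 10 matched taste cell identity features, 8 had a count and 0 passed the filter. The transcription factor gene pou2f3, needed in mouse for the taste cells that use trpm5, was counted 18 times, always in tooth. It was 3.85-fold higher there when set against 3 taste bud counts. Pooled over species, sox2, a transcription factor of taste progenitors, had a ratio of 2.28 in favour of taste bud (1.07 to 5.02), but the group means went opposite ways in the species, with 6.41 CPM in tooth and 31.8 CPM in taste bud of L. fuelleborni and 13.5 and 10.8 CPM in M. zebra. The pooled ratio of prox1 was 2.30 in favour of taste bud (1.28 to 4.21), from 4.88 CPM in tooth and 50.3 CPM in taste bud of M. zebra, while in L. fuelleborni the levels were 40.9 and 36.004 CPM. Neither gene was tested in the main fit. In the edgeR fit with a minimum count of 5, the tissue difference of prox1 was not shown to differ between the species. That contrast was 3.15 on the log2 scale (SE 1.24, adjusted p = 0.614). The ratio of foxa2 was 5.13 (1.21 to 46.0) in favour of tooth.

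**Figure D4:**
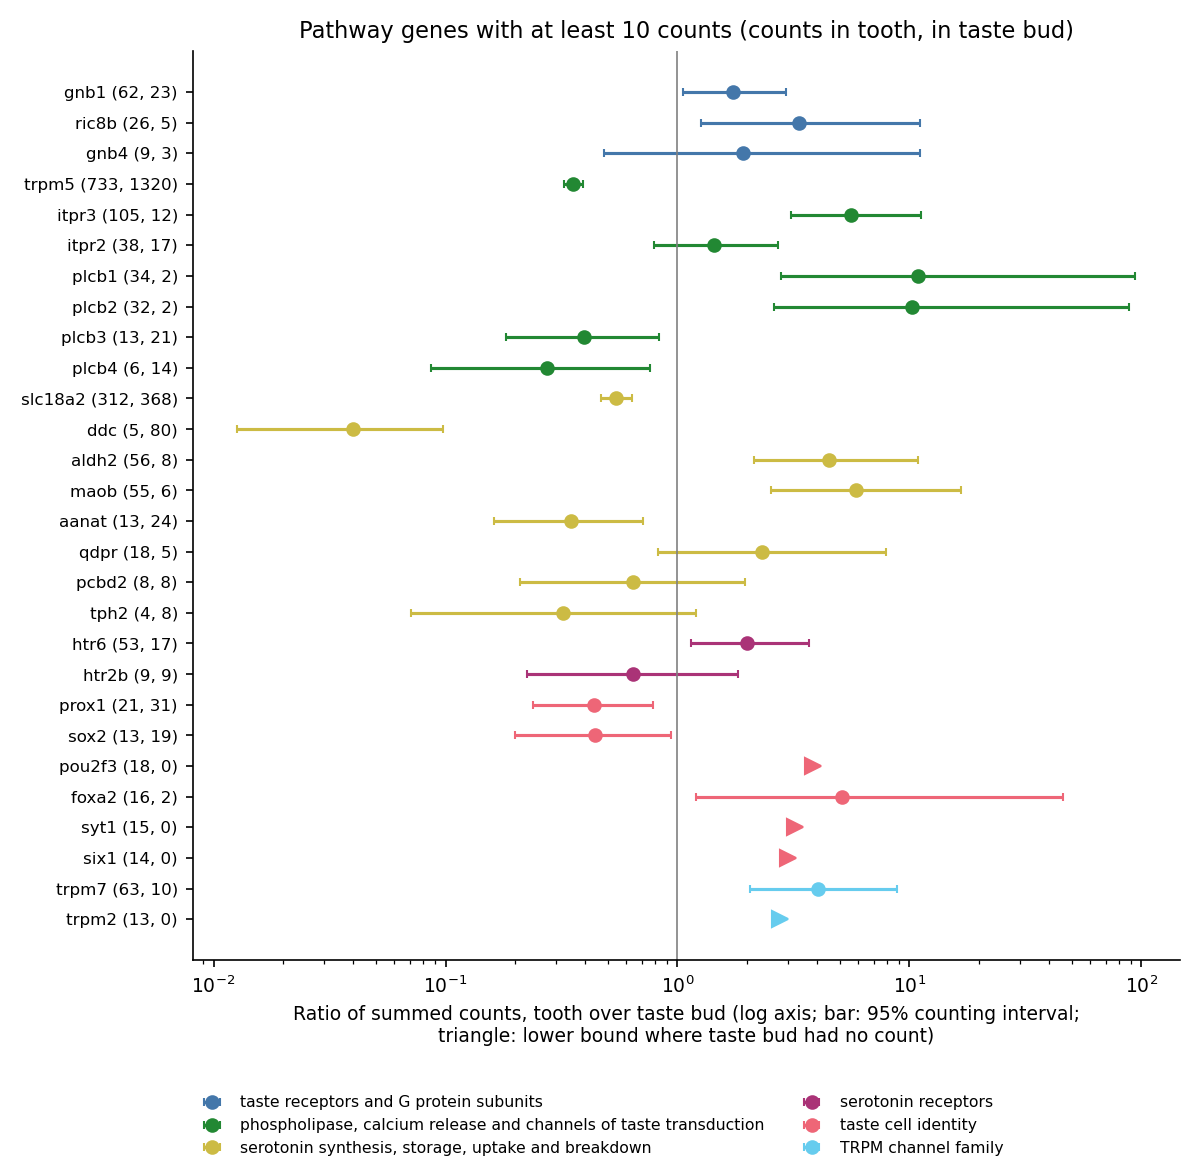
Ratio of summed counts, tooth over taste bud, for the genes of the 6 pathway lists with at least 10 counts (log axis; bars: 95% counting intervals; triangles: lower bounds where taste bud had no count; counts in tooth and taste bud beside each name). The ratios run from 0.0401 for ddc to 10.9 for plcb1, with trpm5 at 0.356 on the taste bud side and itpr3 and plcb2 on the tooth side.

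The labelled tissues were checked against their markers. Over both species (edgeR), the 11 tested genes of the tooth mineral matrix were all higher in tooth, against 32.6% of all genes tested. But 6 of them had no taste bud count and could only come out higher in tooth. Over all taste bud libraries, entpd5 had 1 count and col10a1 had 20. At least these genes passed the filter only through tooth, and the direction of their calls was not independent of it. Of the 12 tested genes of oral keratinocytes, 10 were higher in taste bud, against 20.2% of all genes tested, and 2 did not pass. Within M. zebra 8 of the 12 were higher in taste bud, against 15.7% of all genes tested, and 4 did not pass. At least tgm1, scel and esrp1, with 0, 2 and 6 counts in tooth, passed the filter only through taste bud. The direction of their calls was thus not independent of the filter. The summed level of the keratinocyte markers was 4611 to 7652 CPM in L. fuelleborni taste bud and 452 to 1225 CPM in the teeth of both species. In M. zebra taste bud it was 4209, 1271 and 4098 CPM (replicates 1, 2 and 3). Replicate 2 thus lay near the teeth for these markers, and the same library had the highest trpm5 level, 3626 CPM, and the fewest features with a count, 5979. Without it, the trpm5 difference in M. zebra was -2.13 on the log2 scale (SE 0.51, adjusted p = 0.00314), against -2.24 with all libraries. For the summed keratinocyte markers, every M. zebra taste bud library lay below every L. fuelleborni one. The taste bud libraries of the 2 species separated in 22.6% of genes tested. Of the 12 tested markers, 0 passed the species contrast in taste bud, against 4.29% of all genes tested. The means of trpm5 and ddc were higher in M. zebra, and the part of keratinocytes in this was not tested.

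Markers of Merkel and other neuroendocrine cells, which can also hold serotonin, had counts for 12 of 14 genes. Their summed level was 405 to 547 CPM in M. zebra taste bud, above the 259 to 345 CPM of L. fuelleborni taste bud and the 199 to 386 CPM of the teeth. Most of it came from the granin gene scg2, with 454 counts, of which 238 came from taste bud. Other genes of the list had more in tooth, with ratios of 5.99 for npy (1.85 to 30.8), 9.62 for scg5 (1.48 to 405) and 3.53 for scg3 (1.20 to 14.1). The defining genes atoh1 and insm1 were at 0 in every library, and 0 of 2 tested members passed over both species. Markers of nerve and Schwann cells had counts for 9 of 11 genes, and the tissues overlapped, with 71.8 to 280.02 CPM in taste bud and 105 to 271 CPM in tooth. Of 2 tested, mpz was higher in tooth and erbb3 in taste bud. With 3 counts of mpz in taste bud and 8 of erbb3 in tooth, each passed the filter only through the tissue where it was high. The part of these cells in the trpm5 and ddc results was not tested.

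Markers of osteoclasts and immune cells were set beside itpr3 and plcb2. The osteoclast level was 71.5 to 525 CPM in the 6 tooth libraries, 4.73 to 7.18 CPM in the taste bud libraries of L. fuelleborni and 0 in those of M. zebra, where none of 7 markers had a count. Within L. fuelleborni tooth, itpr3 and the osteoclast level were both highest in replicate 4, at 139 and 525 CPM. This was the deepest library, and its tooth mineral matrix level, 42270 CPM, was also the highest, against 11004 and 8410 CPM in replicates 0 and 3. The gene mmp9 held 112 of the 193 osteoclast counts in L. fuelleborni tooth. In M. zebra tooth the mineral matrix level was highest in replicate 3, at 36738 CPM. Within M. zebra tooth the order of itpr3 and the osteoclast level was opposite. There itpr3 was highest in replicate 1, at 88.2 CPM, where the osteoclast level was lowest, at 111 CPM. It was lowest in replicate 0, at 58.4 CPM, where the osteoclast level was highest, at 198 CPM. The immune level, from 15 markers, was also highest in replicate 4 of L. fuelleborni tooth, at 872 CPM. In L. fuelleborni taste bud it was highest in replicate 4, at 962 CPM, the taste bud library with the most itpr3. The gene cd74, which encodes the class II invariant chain, held 222 of the 349 immune counts in L. fuelleborni tooth and 184 of the 225 in L. fuelleborni taste bud. In M. zebra taste bud 5 of 15 immune markers had a count, with 83.9 to 130.03 CPM in sum. By contrast, plcb2 was highest in L. fuelleborni tooth replicate 3, where the immune level, 179 CPM, was the lowest of the group. That rests on 6 plcb2 counts there against 5 in replicate 4. In M. zebra tooth, plcb2 was highest in replicate 3, at 39.6 CPM, where the immune level, 251 CPM, was the highest of the group. The part of these cells in the itpr3 and plcb2 results was not tested.

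**Figure D5:**
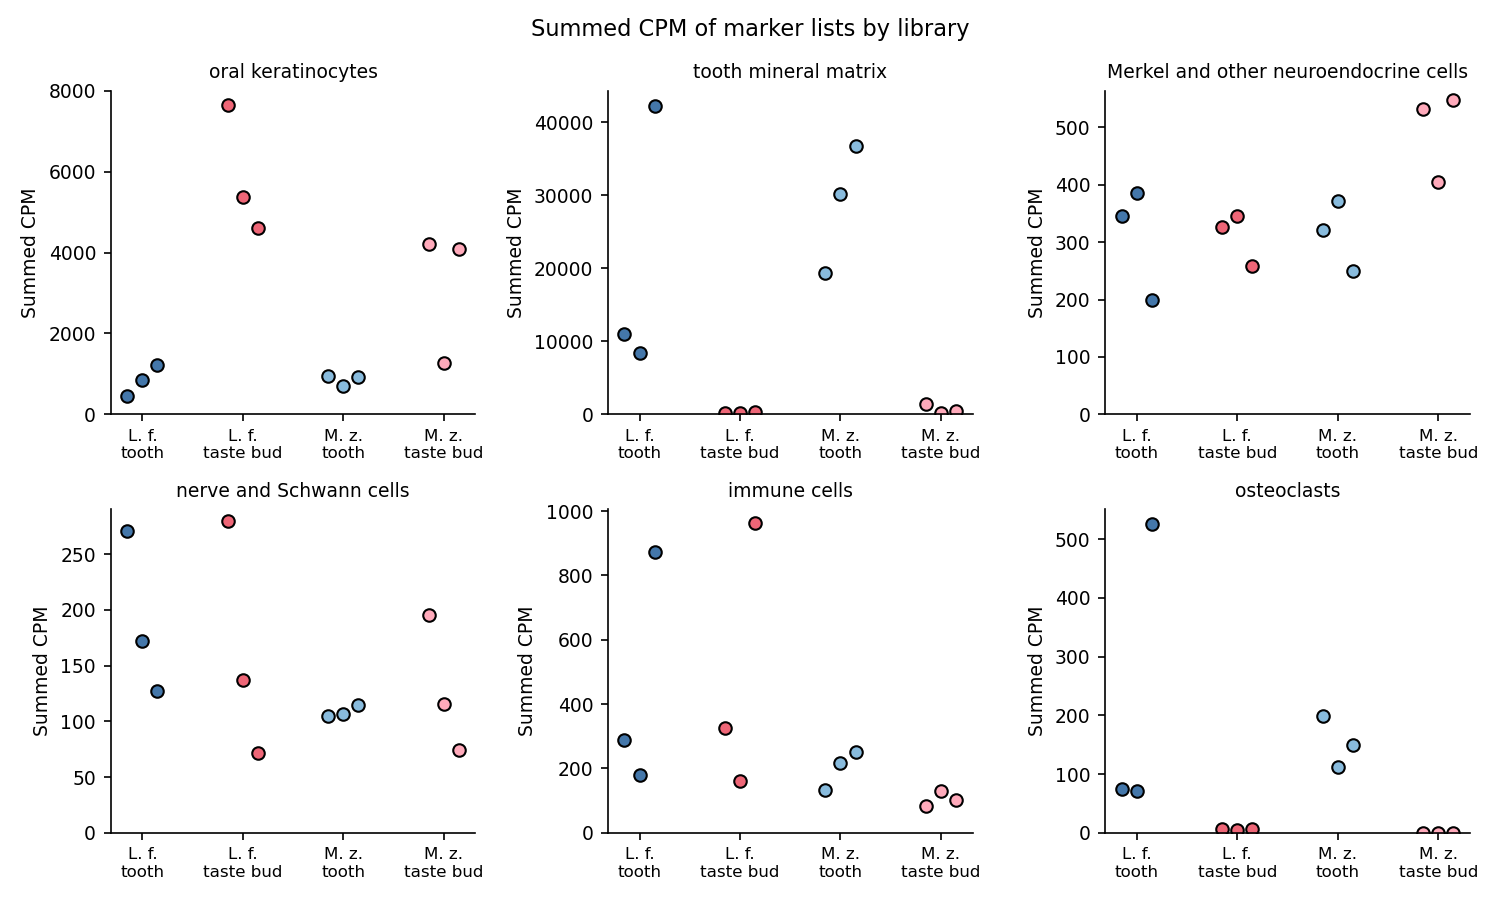
Summed CPM of 6 marker lists in each library (y axis) by group (x axis), 1 point a library. Keratinocyte markers are high in taste bud except in M. zebra replicate 2 at 1271 CPM, neuroendocrine markers are highest in M. zebra taste bud, and osteoclast markers are near 0 in both taste bud groups.

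Genes with the most similar pattern were sought among the 1588 other named genes tested, by the root mean square difference in log2 CPM over the 12 libraries after each gene was centred on its own mean. For trpm5 these were phykpl (0.28), trmt2a (0.30) and ncaph2 (0.30), against a median of 1.41 over all candidates. Each of the 3 had its highest mean in M. zebra taste bud and its next highest in L. fuelleborni taste bud: 3470 ± 1216 and 1755 ± 547 CPM for phykpl, 5332 ± 953 and 3065 ± 731 for trmt2a, and 671 ± 133 and 378 ± 117 for ncaph2 (SD, n = 3 each). For ddc they were fam210b (0.61), ccdc97 (0.65) and il17d (0.79), against a median of 1.95. The mean of fam210b was 157 ± 61.8 CPM in M. zebra taste bud and 41.98 ± 17.3 in L. fuelleborni taste bud.

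For itpr3 the nearest were ddr1 (0.40), clip2 (0.55) and smarca2 (0.59), against a median of 1.34. The receptor tyrosine kinase gene ddr1, a receptor for collagen, was at 91.1 ± 25.8 and 83.4 ± 21.6 CPM in the teeth of L. fuelleborni and M. zebra and at 20.8 ± 13.6 and 4.82 ± 8.34 CPM in their taste buds (SD, n = 3 each). For plcb2 they included vasn (0.45) and gpr137c (0.46) among 1589 candidates, against a median of 1.08. In the teeth of L. fuelleborni and M. zebra, vasn was at 53.6 and 61.1 CPM and gpr137c at 97.1 and 150 CPM. In their taste buds, vasn was at 24.5 and 9.48 CPM and gpr137c at 53.4 and 61.0 CPM. The log2 CPM had a prior count of 2, which shrinks the differences of a gene with few counts, such as plcb2. The patterns of plcb2 and ddc rest on 34 and 85 counts, against 2053 for trpm5.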

How the data were processed

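The counts analysed are raw, whole-number reads per gene that the authors deposited for all 12 libraries in 1 table. Tools listed without a role in the submitters' processing notes are HTSeq 0.6.1, TopHat2 2.0.9, limma 3.20.9, edgeR 3.6.8 and SAMtools 0.19. No source used here gives the genome build, annotation or strand setting. Library preparation used a stranded mRNA kit, per the labels' protocols. Total counts per library were 72226 to 300663, which limits precision for low genes. The 95% counting intervals cover counting error only. Ratios set against 3 counts over a group that had none, drawn as lower bounds, leave out the counting error of the other group. Within a group, pairs of libraries differed beyond sampling noise (chi-square per degree of freedom 2.81 to 17.6).

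The filter filterByExpr (minimum count 10, minimum total 15, 4 groups) left 2962 genes. With TMM factors, edgeR 4.0.16 (R 4.3.3) fitted quasi-likelihood models of the 4 groups to the 12 libraries, with no block for replicate number. Each of 6 contrasts was tested two-sided with Benjamini-Hochberg adjustment over the genes of a contrast and a threshold of 0.05. The SE is the log2FC over the square root of the F statistic. Alternatives used DESeq2 1.42.0, limma 3.58.1 (voom), other scalings, filters and libraries left out. The procedure was tested on simulated counts.

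Exact permutation tests exchanged tissue labels of log2 CPM (prior count 2) within species, 4 members each in 5 comparisons, with raw p-values. Named genes were the 4 members, genes of the pathway lists past the threshold in any contrast, of the others the 4 with the most counts in each list, and the 3 nearest patterns per member, of which 1 is not reported here. The marker genes named singly (scg2, npy, scg5, scg3, cd74, mmp9, mpz, erbb3, actn3, ryr3, mylpf, tgm1, scel, esrp1, entpd5, col10a1) were picked after their values were seen, apart from the defining atoh1 and insm1. List symbols were matched to feature names, alone or with a copy suffix. Other genes whose symbol ends in that letter (gnb1l, asmtl, calcrl) were left out. The members and lists were chosen with earlier results of these data known.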

Additional observations from a re-analysis of the deposited data

How the results depend on the processing

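For the 3 tested members in 6 contrasts, the 4 ratios and 4 permutation tests, and the counts of genes called, 674 values were recomputed under other settings. Of these, 631 stayed the same. For tested values this means the same direction and side of the threshold. For ratios it means a value within the main 95% counting interval, and for counts of genes called a value within a set fold of the main count. Over both species trpm5 and ddc passed in every fit run, with log2FC from -1.71 to -1.42 and from -5.54 to -4.37 with 1 library left out. The itpr3 call over both species was lost on leaving out the 3 libraries with most ribosomal protein counts (1.83). The other itpr3 values that changed side or direction are these. In L. fuelleborni the log2FC passed with DESeq2's size factors (2.09), upper quartile factors (1.95) and total counts as library sizes (2.20, a setting chosen after seeing the data), was -0.23 without those 3 libraries, and ran from 1.13 to 3.21 with 1 library left out. In M. zebra it ran from 3.18 to 6.63. The species contrast in tooth turned to -0.026 with a replicate block, -0.45 without those 3 libraries, -0.046 with the ribosomal share as covariate, and ran from -0.43 to 0.60 with 1 library left out. For trpm5, the L. fuelleborni difference passed with the ribosomal share as covariate (-1.04) and the species contrast in taste bud passed in DESeq2 (-1.28). For ddc, values with 1 library left out ran from -3.72 to -2.27 in L. fuelleborni and from -2.51 to -1.15 for the species contrast in taste bud. The cause was not tested.

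In the taste bud libraries 1 feature took 11.9 to 26.4% of all counts, and in the tooth libraries the same feature took at most 0.778%. With that feature left out of the scaling and fit, the log2FC over both species was -1.51 for trpm5, 2.89 for itpr3 and -4.71 for ddc (edgeR). With total counts in place of TMM sizes the trpm5 ratio, tooth over taste bud, was 0.459 against 0.356. With 1 library left out, ratios ran from 0.316 to 0.401 for trpm5 and from 4.35 to 13.8 for itpr3. DESeq2's size factors shifted the median log2FC of all genes by 0.20 and total counts by 0.32. Relative to that median, trpm5 was at -1.75 with TMM, -1.75 with DESeq2's size factors and -1.73 with total counts. Without a filter 3327 genes passed over both species, and 2512 with a minimum count of 5, against 1564. The species contrasts gave 124 and 72 genes in tooth, against 45, and 229 and 194 in taste bud, against 127. Both of these fits tested more genes than the 2962 of the main fit, so that the counts cannot be compared as shares. The fit without a filter took in all but 5798 of the 26490 features, and its share called over both species was below the 52.8% of the main fit.

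Replicate numbers were shared by 3 pairs of libraries, L. fuelleborni 4 and M. zebra 1 and 3, whose deviations from the group means correlated at -0.01, 0.05 and 0.24, 1 of 3 above the 0.1 required of every pair. The numbers were therefore not used as pairs, and whether libraries with the same number share an animal is not known. With the number as a random replicate block in limma-voom, the log2FC over both species was -1.54 for trpm5, 2.56 for itpr3 and -4.22 for ddc, all 3 past the threshold, and the block changed the call of no tested member in the 6 contrasts.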

Other observations

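Markers of skeletal muscle and pigment cells were also counted. Of 5 muscle features, all 5 had a count and 2 were tested. The alpha-actinin gene actn3 was higher in taste bud (log2FC -1.55, adjusted p = 0.00885, edgeR), as were 20.2% of all genes tested, at 165 ± 129 CPM against 54.9 ± 25.6 in tooth (SD, n = 6 each). Within M. zebra it did not pass (adjusted p = 0.120, edgeR), and in L. fuelleborni taste bud it was at 195 ± 192 CPM (SD, n = 3). The other, ryr3, did not pass. The untested mylpf had a ratio of 3.92, tooth over taste bud, with total counts as library sizes. The summed muscle level was 217 to 618 CPM in taste bud and 166 to 509 CPM in tooth. Of 10 pigment cell features, 9 had a count and 0 passed the filter, with 79 counts in tooth and 62 in taste bud.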
